A study of Mus musculus with 9 samples.

Results

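Transcript levels in Neuro2a cells treated with siMyT1, an siRNA against Myt1, were compared with those in cells treated with siControl. The comparison takes the 3 arrays titled siMyT1 and the 3 titled siControl, 6 of the 9 arrays of the series, and all 34945 of 45101 probe sets that carry 1 gene symbol, which stand for 18193 genes. Neuro2a is an established mouse neuroblastoma line derived from the neural crest lineage that also forms sympathetic neurons. Both groups are of this line and had been exposed to their siRNA for 48 h. The other 3 arrays, from cells treated with siLSD1, entered the estimate of the spread and the side-by-side values at the end. The labels do not name the siRNA sequences, so how many siRNAs were used against Myt1 is not known here. Nothing tells whether replicate arrays stand for separate cultures. The p-values thus measure only the spread between these arrays, which may be technical.

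Myt1 encodes a DNA-binding protein made in developing neurons, whose clusters of CCHC zinc fingers recognise a short AAGTT core. Its paralogues are Myt1l and St18. In the neural lineage these factors are best known for holding non-neuronal and progenitor programmes down while neurons form, and the series treats Myt1 as a partner of LSD1, a histone demethylase.

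Values are intensities in the units of the deposited table, and no source used here gives the steps that produced them. Array medians lay between 0.302 and 0.424 units, with the highest in siMyT1 replicate 2, and sums between 196271 and 219953 units. The number of arrays limits the precision. Of 12 sympathoadrenal marker genes 10 were measured, and all 10 were above 1 unit in siControl. Their summed level was 190.4 to 207.3 units over the siControl arrays and 161.4 to 170.1 over the siMyT1 arrays. The brightest members weigh most in this sum. Stmn2 and Hand2 had means of 54.0 and 51.7 units in siControl and 45.8 and 37.6 in siMyT1. Of the 10 genes 3 were lower at a limma adjusted p under 0.05, Chga, Hand2 and Phox2a, and 0 higher. Gata3 and Isl1 had higher means in siMyT1 without passing. None of the 8 endothelial markers reached 1 unit in siControl, and of the 10 epithelial markers and the 9 measured immune markers 1 each did so. The ratio of 3′ to 5′ control probe sets was 1.155 to 1.188 in siControl and 1.108 to 1.117 in siMyT1 for actin, and 0.785 ± 0.0092 against 0.796 ± 0.0082 (SD, n = 3) for Gapdh. The part of RNA quality in the results below was not tested.

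Myt1 itself was measured at 4.60, 5.27 and 4.82 units on the siControl arrays and at 0.625, 0.882 and 0.474 on the siMyT1 arrays. The groups did not overlap, and 13.5% of the control level remained. On the log2 scale used throughout, log2(value + pseudocount) with a pseudocount of 0.196 units, this was a fall of 2.60 (SE 0.15, limma adjusted p = 1.25e-06). On the dim probe set of Myt1 the groups overlapped, at 0.0169 to 0.106 units in siControl and 0.0201 to 0.101 in siMyT1. Its paralogue St18 rose on both of its probe sets. The brighter St18 probe set read 0.975, 0.976 and 1.01 units in siControl and 1.89, 2.15 and 2.66 in siMyT1, and the other 0.975, 1.11 and 0.860 against 1.62, 2.41 and 1.79 (log2 fold changes 1.03 and 0.85, limma adjusted p over all probe sets = 0.00163 and 0.0147). Myt1l, the third paralogue, was lower by 0.51 on its brightest probe set (limma adjusted p = 0.019), from 2.06 ± 0.036 to 1.39 ± 0.11 units (SD, n = 3). That call ended when siControl replicate 1 or 3 was left out (adjusted p up to 0.0723) and when the 5 Myt1l probe sets were averaged (adjusted p = 0.474). Scrt1, a zinc finger repressor of differentiating neurons, fell from 2.78, 3.22 and 2.75 units to 1.15, 1.42 and 1.41 (log2 fold change -1.04, SE 0.11, limma adjusted p = 0.000164).

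Over the whole array, 931 genes rose and 417 fell with siMyT1 at a limma adjusted p under 0.05, which is 5.12% and 2.29% of the 18193 genes and 7.41% together. Most changes were small. The median rise among called genes was 0.46 and the median fall -0.41 on the log2 scale, 299 rises and 93 falls reached 1.5-fold, and 43 and 6 reached 2-fold. Without regard to any test, the 6 arrays did not overlap between groups for 24.0% of genes, with all siMyT1 arrays above in 16.5% and below in 7.55%. Of the 1348 called genes, 1346 did not overlap. Rises made up 69.1% of calls with the values as deposited, 55.4% after quantile normalization and 52.8% after median centring. The excess of rises over falls therefore differed with the scaling, although the median over all genes moved little (0.05, 0.01 and -0.00). The counts also moved with single arrays, to between 423 higher genes without siMyT1 replicate 2 and 1174 without siMyT1 replicate 1. They were 436, 431 and 441 without siControl replicate 1, siControl replicate 3 and siMyT1 replicate 3, where 214, 313 and 268 genes were lower. Without siControl replicate 2 there were 779 and 218. A set of 340 genes, 242 higher and 98 lower, passed in each of the 18 alternative analyses that tested them. Genes described below as having risen or fallen belong to that set unless an exception is stated.

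**Figure D1:**
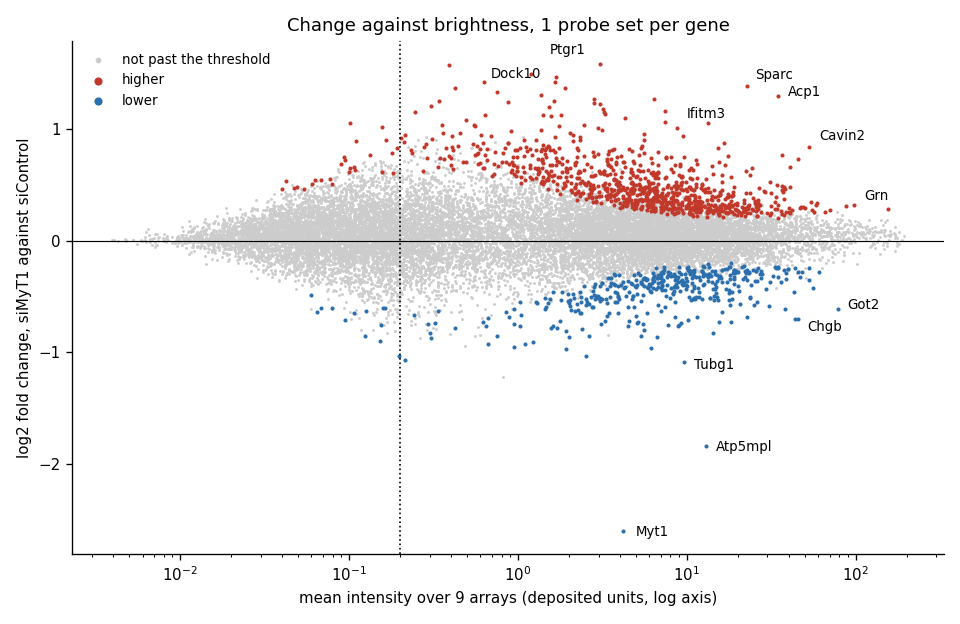
Log2 fold change of siMyT1 against siControl (vertical) against the mean intensity over 9 arrays in deposited units (horizontal, log axis), with 1 point per gene from its brightest probe set, red for higher, blue for lower and grey for genes not past a limma adjusted p of 0.05. The dotted line marks 0.2 units, close to the pseudocount, and Myt1 is the lowest point at -2.60, followed by Atp5mpl at -1.84.

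Because the factor binds AAGTT, the upstream regions of called genes were read for that core. The 250 bases before the start of 4 genes are shown, with each AAGTT match on either strand in capitals (AACTT marks a match on the other strand). They run 5′ to 3′ on the gene's own strand and come from RefSeq, build GRCm38.p6. Cavin2, Sparc and Ptgr1 are shown because they rose and hold the core, and Chgb because it fell and holds none. Cavin2 lies on the plus strand (chr1:51288876-51289125), Sparc on the minus strand (chr11:55420081-55420330), Ptgr1 on the minus strand (chr4:58987079-58987328) and Chgb on the plus strand (chr2:132781392-132781641).
Cavin2: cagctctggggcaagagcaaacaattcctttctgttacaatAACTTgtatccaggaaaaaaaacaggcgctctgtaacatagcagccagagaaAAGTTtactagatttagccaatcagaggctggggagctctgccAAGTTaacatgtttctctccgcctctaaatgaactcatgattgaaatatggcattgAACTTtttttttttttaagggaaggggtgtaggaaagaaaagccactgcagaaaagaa
Sparc: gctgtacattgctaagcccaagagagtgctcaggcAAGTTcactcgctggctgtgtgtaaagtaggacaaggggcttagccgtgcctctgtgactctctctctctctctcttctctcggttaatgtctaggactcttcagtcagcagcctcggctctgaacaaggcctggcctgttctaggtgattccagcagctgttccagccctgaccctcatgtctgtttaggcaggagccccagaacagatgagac
Ptgr1: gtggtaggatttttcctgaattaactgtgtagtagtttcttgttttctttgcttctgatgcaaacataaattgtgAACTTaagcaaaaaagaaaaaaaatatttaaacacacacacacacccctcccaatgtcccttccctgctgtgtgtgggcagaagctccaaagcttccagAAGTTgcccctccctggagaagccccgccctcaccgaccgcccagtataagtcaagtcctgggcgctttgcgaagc
Chgb: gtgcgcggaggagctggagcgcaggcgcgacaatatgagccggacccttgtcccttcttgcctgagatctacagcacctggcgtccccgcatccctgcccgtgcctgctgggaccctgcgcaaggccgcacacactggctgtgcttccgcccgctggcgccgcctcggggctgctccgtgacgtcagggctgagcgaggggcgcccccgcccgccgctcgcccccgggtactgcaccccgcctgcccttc
Cavin2 held 2 matches on the printed strand and 2 on the other, Ptgr1 1 on each, and Sparc 1 on the printed strand. GC content was 40.4% for Cavin2, 54.0% for Sparc, 46.4% for Ptgr1 and 72.8% for Chgb.

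At least 1 AAGTT match on either strand was present in the 250 upstream bases of 303 of 766 higher genes with a RefSeq promoter entry (39.6%) and in 78 of 344 lower genes (22.7%), beside 5048 of 14452 genes measured (34.9%). Base composition differed along with these shares. Median GC content was 58.4% for higher, 63.3% for lower and 57.6% for all genes. The same letters read backwards, TTGAA, which have the same composition, were found in 34.2%, 25.9% and 31.8%. These shares describe letters in a window, not binding, and the part of base composition was not tested.

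The clearest falls by gene family were among the proteins of dense-core vesicles, in which neuroendocrine cells store peptide hormones and amines. Of 16 measured granins and peptide processing genes, 7 were lower (43.8%, against 2.29% of all genes) and the other 9 did not pass the test, with a median log2 fold change over the list of -0.27 against 0.05 over all genes. Of all genes with a mean of 8.49 to 16.46 units, where the median level of the list lay, 5.99% were lower. Chgb, chromogranin B, read 49.9, 49.5 and 50.0 units in siControl and 29.2, 29.8 and 32.6 in siMyT1. The siMyT1 arrays lay far below a tight control group, at 61.2% of its mean (log2 fold change -0.71, SE 0.06, limma adjusted p = 3.15e-05). Chga, chromogranin A, fell from 15.7, 15.5 and 14.5 units to 9.98, 12.5 and 11.4 (log2 fold change -0.43, SE 0.08, adjusted p = 0.00511). Cpe, the carboxypeptidase that trims peptide hormones, was lower by 0.39, a call that ended when its probe sets were averaged (adjusted p = 0.228). Weaker calls were those of Pcsk1n, which encodes the convertase inhibitor proSAAS (-0.36), Scg5, a chaperone of a prohormone convertase (-0.27), and the granin family members Vgf (-0.37) and Scg2 (-0.24). Each of these 4 calls ended when 1 array or another was left out. Pcsk1n lost it without siMyT1 replicate 3 (adjusted p = 0.0521) and Scg5 without siControl replicate 1 (adjusted p = 0.056). Vgf (adjusted p up to 0.0974) lost its call without siControl replicate 1 or 2 or siMyT1 replicate 1 or 3, and Scg2 (up to 0.161) without any array but siMyT1 replicate 3. With 1 array left out the list had 4 to 6 called members, 4 of them without siControl replicate 1, and under quantile normalization and median centring 8 and 7.

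Genes of the synaptic vesicle cycle and the neuronal cytoskeleton were lower in part. Of 38 synaptic vesicle and release genes 4 were lower (10.5%) and 1 higher (2.6%), against 2.29% and 5.12% of all genes, with a median of -0.06. Of all genes with a mean of 2.675 to 5.016 units, where the median level of the list lay, 3.52% were lower. In the list 8 were lower after quantile normalization and 7 after median centring. Dnm1, the dynamin that pinches off synaptic vesicles, fell from 8.13, 8.47 and 8.37 units to 6.33, 6.39 and 5.87 (log2 fold change -0.42, SE 0.06, limma adjusted p = 0.00138). Sv2a, a vesicle membrane glycoprotein, fell from 2.09, 2.40 and 2.31 units to 1.24, 1.62 and 1.34 (log2 fold change -0.63, SE 0.12, adjusted p = 0.00624). Neither gene overlapped between groups. Snap25, a SNARE protein of exocytosis, was lower by 0.37 on its brightest probe set, but not when its probe sets were averaged (adjusted p = 0.135). Rab3c, a vesicle GTPase, went the other way, from 26.4, 27.8 and 24.99 units to 38.3, 37.0 and 38.7 (log2 fold change 0.52, SE 0.06, adjusted p = 0.000326). Syp, the vesicle protein synaptophysin, was at 80.1% of control and did not pass (adjusted p = 0.0574). Of 30 neuronal cytoskeleton and growth cone genes 3 were lower and 1 higher, with a median of -0.07. After quantile normalization 8 were lower and 2 higher, and after median centring 6 lower and 1 higher. Ina, the neurofilament protein alpha-internexin, fell from 17.7, 17.9 and 16.3 units to 11.9 on each siMyT1 array (log2 fold change -0.53, SE 0.09, adjusted p = 0.00305). Gap43, a growth cone protein, fell from 13.7, 15.7 and 14.9 units to 11.7, 10.9 and 11.8 (log2 fold change -0.36, adjusted p = 0.00671). Neuronal beta-tubulin Tubb3 overlapped between groups at 98.7% of control (adjusted p = 0.929). The RNA-binding proteins of the Hu family split. Elavl4 was lower by 0.52 and Elavl2 higher by 0.43 on their brightest probe sets. The Elavl4 call ended in the fit without an intensity trend, and that of Elavl2 when its probe sets were averaged (adjusted p = 0.283).

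Among the transcription factors that specify sympathetic neurons, 2 of 20 measured were lower and the median was 0.04 (-0.00 after quantile normalization). Hand2, a helix-loop-helix factor of the sympathoadrenal lineage, fell from 50.3, 56.9 and 48.0 units to 37.1, 36.1 and 39.6 (log2 fold change -0.46, SE 0.08, limma adjusted p = 0.00331). Phox2a, a homeodomain factor that directs noradrenergic identity, was lower by 0.33, a call that ended in the fit without an intensity trend. Dbh and Th, the enzymes that make noradrenaline and dopamine, were at 66.2% and 81.0% of control and did not pass (adjusted p = 0.0931 and 0.129). Neither overlapped between groups, which was also so for 24.0% of all genes. Slc18a2, which loads monoamines into vesicles, fell from 4.92 ± 0.11 to 3.80 ± 0.16 units (SD, n = 3; log2 fold change -0.35, adjusted p = 0.00611). Of 19 catecholamine and cholinergic genes measured, 2 were lower (10.5%) and 1 higher (5.3%), with a median of 0.09. The lower count was 1 without siControl replicate 1, 2 or 3 or siMyT1 replicate 3, and the higher count was 0 without siControl replicate 1 or 3 or siMyT1 replicate 2 or 3 and 2 without siControl replicate 2. Averaging probe sets gave a median of -0.02. In bulk RNA, fewer cells of a type and less RNA per cell cannot be told apart.

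Receptors and their G protein partners held both rises and falls. Of 83 orphan and adhesion G protein coupled receptors 6 were lower (7.2%) and 2 higher (2.4%), with a median of -0.02. Gpr85, an orphan receptor of the brain, fell from 6.70, 8.16 and 6.74 units to 4.18, 3.84 and 4.09, or 56.0% of control (log2 fold change -0.80, SE 0.09, limma adjusted p = 0.000143). Gpr22, another orphan receptor, fell from 1.31, 1.38 and 1.46 units to 0.537, 0.664 and 0.744 (log2 fold change -0.91, SE 0.16, adjusted p = 0.00427). With 1 array left out, 3 to 5 receptors of the list were lower, 3 without siControl replicate 1 or siMyT1 replicate 1 or 2, and both higher calls ended without any array but siMyT1 replicate 1. Gng4, a G protein gamma subunit, fell from 6.94, 7.81 and 6.79 units to 3.71, 3.93 and 3.99 (log2 fold change -0.86, SE 0.08, adjusted p = 5.11e-05). Rgs4 fell by 0.78 (SE 0.15, adjusted p = 0.00808). Of 30 heterotrimeric G protein subunits 2 were lower and 0 higher by limma (6 and 3 at an unadjusted p under 0.05), with a median of -0.01, and the lower count was 1 without any array but siMyT1 replicate 2 and 5 after quantile normalization, which also gave 2 higher. Of 21 RGS proteins, which shorten G protein signals as Rgs4 does, 2 were higher and 1 lower, with a median of 0.06. The higher calls both ended without siControl replicate 1 or 3 or siMyT1 replicate 2 or 3 or with averaged probe sets, and without siMyT1 replicate 1 there were 1 higher and 2 lower. Plxnd1, a semaphorin receptor, fell from 3.09, 3.82 and 3.62 units to 1.93, 2.12 and 1.99 (log2 fold change -0.74, SE 0.12, adjusted p = 0.00251), while 29 of the 31 semaphorin, plexin and neuropilin genes did not pass the test. Several receptors that were lower on their brightest probe set were not once the gene's probe sets had been averaged. They were the latrophilin Adgrl2 (-0.50, then adjusted p = 0.0859), the GABA-B subunit Gabbr1 (-0.59, then 0.675), the neurotrophin-3 receptor Ntrk3 (-0.52, then 0.454) and the nicotinic subunit Chrna3 (-0.52, then 0.184).

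**Figure D2:**
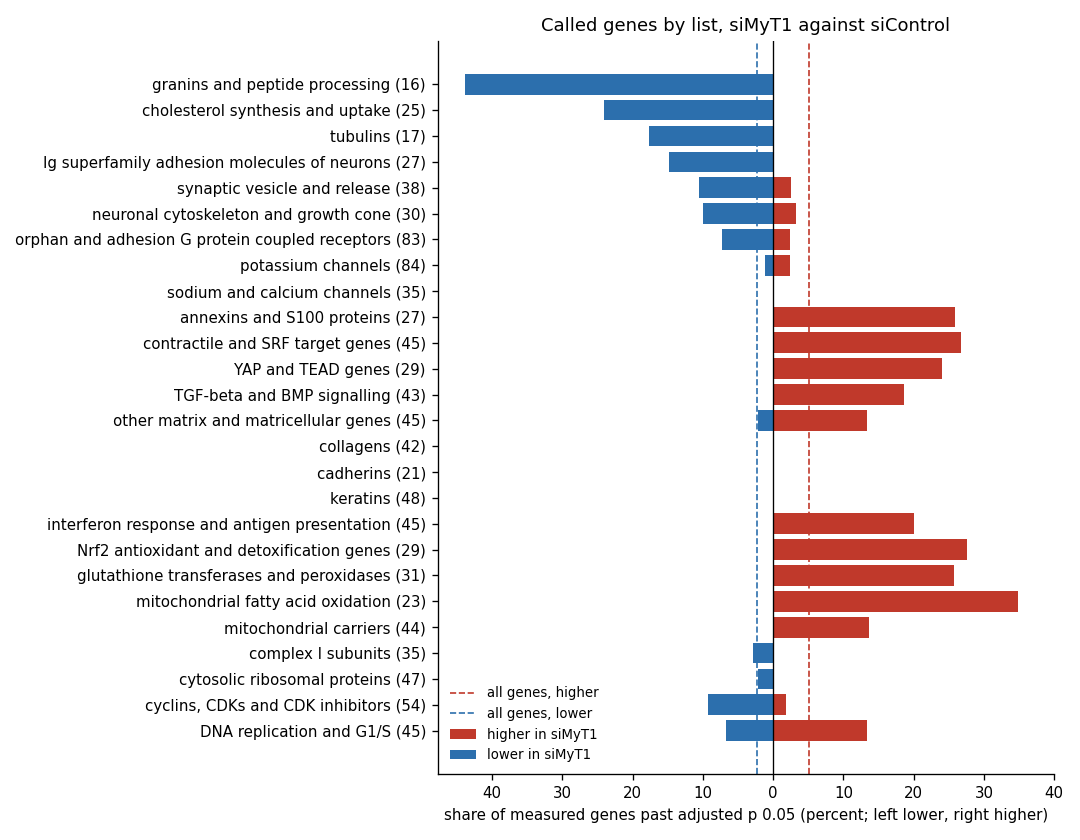
Share of measured genes past a limma adjusted p of 0.05 in 26 gene lists, lower in siMyT1 to the left in blue and higher to the right in red, with the number of measured genes in brackets and dashed lines at the shares over all genes (2.29% lower, 5.12% higher). Granins and peptide processing genes reach 43.8% lower and mitochondrial fatty acid oxidation genes 34.8% higher, while collagens, cadherins, keratins and sodium and calcium channels have no bar.

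Of 25 cholesterol synthesis and uptake genes 6 were lower (24.0%, against 2.29% of all genes) and 19 did not pass the test, with a median of -0.21. Of all genes with a mean of 5.02 to 8.48 units, where the median level of the list lay, 4.62% were lower. Srebf2, the transcription factor that drives them, read 16.2, 18.8 and 14.9 units in siControl and 9.40, 8.48 and 9.91 in siMyT1 (log2 fold change -0.83, SE 0.12, limma adjusted p = 0.00134). Idi1, an isomerase of the isoprenoid steps, fell from 9.61, 10.2 and 9.55 units to 6.62, 6.38 and 6.54 (log2 fold change -0.57, adjusted p = 0.00189), and Dhcr7, the last reductase, by 0.52 (adjusted p = 0.00441). The count of called members was 3 without siControl replicate 3 and 16 after quantile normalization. Fasn, fatty acid synthase, which does not belong to the sterol pathway, overlapped between groups at 97.6% of control.

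Of 17 tubulins 3 were lower (17.6%, against 2.29% of all genes). Tubg1, the gamma-tubulin that nucleates microtubules, fell from 12.6, 11.9 and 12.2 units to 5.18, 5.58 and 6.27 (log2 fold change -1.09, SE 0.07, limma adjusted p = 4.65e-06), and Tubb2b, a beta-tubulin of young neurons, by 0.45 (adjusted p = 0.00702). Tubb2a was lower by 0.51, a call that ended without probe sets marked as possibly hybridising to several transcripts. Kif11, the kinesin that pushes spindle poles apart, fell from 6.13, 6.56 and 5.79 units to 3.73, 4.36 and 4.85 (log2 fold change -0.50, SE 0.10, adjusted p = 0.00805). Among septins, which form filaments beside actin and tubulin, Septin2 was lower by 0.58 and Septin9 higher by 0.48. The Septin2 call ended when its probe sets were averaged (adjusted p = 0.0536), and the Septin9 call in the fit without an intensity trend.

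The rises had a different make-up. Contractile genes and targets of SRF, the factor that responds to actin polymerisation, had 12 higher members of 45 (26.7%, against 5.12% of all genes) and a median of 0.21. Of all genes with a mean of 8.49 to 16.46 units, where the median level of the list lay, 9.68% were higher. Tpm1, a tropomyosin, rose from 5.83, 6.48 and 5.47 units to 9.46, 10.8 and 10.03 (log2 fold change 0.75, SE 0.08, limma adjusted p = 8.77e-05). Cald1, caldesmon, rose from 31.3, 32.8 and 32.05 units to 43.3, 44.9 and 45.9 (log2 fold change 0.48, SE 0.05, adjusted p = 0.000246). In neither gene did the groups overlap. Cnn2, a calponin, rose by 0.56 (adjusted p = 0.00112), the adhesion protein vinculin, Vcl, by 0.43 (adjusted p = 0.0057) and Myl9, a regulatory light chain of myosin, by 0.63 (adjusted p = 0.00609). Acta2, smooth muscle actin, was higher by 0.67, but not when its probe sets were averaged (adjusted p = 0.196). Cytoplasmic actin Actb and vimentin, Vim, both very bright, did not pass the test at 113% and 114% of control (adjusted p = 0.229 and 0.166), and the log2 fold change of Actb, 0.17 on its brightest probe set, was -0.08 when its 2 probe sets were averaged. The contractile list had 7 higher members without siMyT1 replicate 2, 8 without siControl replicate 3 or siMyT1 replicate 3 and 14 without siMyT1 replicate 1.

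Annexins and S100 proteins, which bind membranes in a calcium-dependent way, had 7 higher members of 27 (25.9%, against 5.12% of all genes), the other 20 not passing, and a median of 0.24. Anxa5 rose from 15.3, 14.7 and 13.5 units to 20.2, 22.6 and 22.1 (log2 fold change 0.57, SE 0.07, limma adjusted p = 0.000335), and Anxa4 from 2.52, 3.02 and 2.82 to 5.38, 4.71 and 5.11 (log2 fold change 0.82, adjusted p = 0.00059). The annexin partner S100a10 was higher by 0.39 and Anxa7 by 0.46, calls that ended when probe sets were averaged (adjusted p = 0.124 and 0.0698). Anxa2 read 20.2 ± 0.86 units in siControl and 23.6 ± 1.1 in siMyT1 (SD, n = 3) and did not pass (adjusted p = 0.0652).

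Among 29 genes of the YAP and TEAD pathway, which couples cell shape to growth, 7 were higher (24.1%, against 5.12% of all genes) and the median was 0.22. Wwtr1, which encodes the coactivator TAZ, rose from 13.3, 14.2 and 12.3 units to 21.6, 24.4 and 25.4 (log2 fold change 0.83, SE 0.07, limma adjusted p = 2.9e-05). Its sister Yap1 and the classic target Ccn2 were dim and overlapped, at 0.118 ± 0.077 and 0.0469 ± 0.035 units in siControl (SD, n = 3). Amotl2, a scaffold that binds YAP proteins, rose by 0.65 (adjusted p = 0.00776), and Gadd45a, a stress gene, from 5.17, 5.97 and 5.46 units to 11.3, 11.9 and 12.1 (log2 fold change 1.06, adjusted p = 8.24e-06). A list of 30 p53 targets, whose largest log2 fold change was also 1.06, had 4 higher (13.3%) and 2 lower (6.7%) members. Without siControl replicate 1 or 3, or siMyT1 replicate 2 or 3, 3 members of the YAP and TEAD list were called.

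TGF-beta and BMP signalling had 8 higher members of 43 (18.6%, against 5.12% of all genes) and a median of 0.09. Of all genes with a mean of 2.675 to 5.016 units, where the median level of the list lay, 9.40% were higher. The members of the list that held throughout were inhibitors or corepressors of the pathway. Tgif2, a corepressor of SMAD proteins, rose from 2.27, 2.25 and 2.08 units to 4.87, 5.60 and 5.26 (log2 fold change 1.18, SE 0.10, limma adjusted p = 3e-05), and Tgif1 from 7.75, 7.77 and 7.29 to 10.4, 11.1 and 11.7 (log2 fold change 0.53, adjusted p = 0.00123). Bambi, a decoy receptor, rose from 6.48, 7.18 and 6.86 units to 10.1, 11.6 and 10.6 (log2 fold change 0.64, adjusted p = 0.000163). Fst, which encodes the activin-binding protein follistatin, rose from 0.849 ± 0.096 to 2.11 ± 0.42 units (SD, n = 3; log2 fold change 1.13, adjusted p = 0.00078). The other 4 were the ligands Tgfb1, Tgfb2 and Tgfb3 and the signal transducer Smad3. Tgfb1 was higher by 0.83 and Smad3 by 0.50, calls that ended when probe sets were averaged (adjusted p = 0.13 and 0.148), and those of Tgfb2 and Tgfb3 ended under 3 and 4 alternatives. Id1, a common target of BMP signals, overlapped between groups at 98.9% of control.

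Extracellular matrix genes were divided. Of 45 matrix and matricellular genes other than collagens and laminins 6 were higher (13.3%) and 1 lower, whereas none of 42 collagens passed limma's test, with 1 higher and 0 lower at an unadjusted p under 0.05 and 1 higher after quantile normalization. Fn1, fibronectin, rose from 29.7, 30.2 and 26.8 units to 48.1, 51.5 and 48.3 (log2 fold change 0.77, SE 0.07, limma adjusted p = 2.76e-05). Sparc, which binds collagen, rose from 12.6, 11.8 and 12.9 units to 31.6, 32.3 and 34.6 (log2 fold change 1.39, adjusted p = 6.37e-07), and Ccn4, a matricellular protein, from 5.22, 5.72 and 5.27 to 7.73, 8.31 and 7.74 (log2 fold change 0.54, adjusted p = 0.000513). Only 4 of the collagens reached 1 unit in either group. The summed level of 12 fibroblast markers was 43.49 to 48.45 units in siControl and 48.05 to 52.19 in siMyT1, and the defining collagens Col1a1, Col1a2 and Col3a1 had means of 0.145, 0.423 and 0.150 units in siControl and 0.157, 0.466 and 0.217 in siMyT1. Of the 12 only the proteoglycan Dcn was called, from 0.777 ± 0.053 to 1.29 ± 0.076 units (SD, n = 3; limma adjusted p = 0.0292), and that call ended without any array but siMyT1 replicate 1 (adjusted p up to 0.108). Skeletal and smooth muscle markers summed to 22.97 to 25.07 units in siControl and 20.74 to 22.65 in siMyT1. Of those 10 the myosin Myh3 alone was above 1 unit, and it did not pass the test (adjusted p = 0.0816). The 8 endothelial markers summed to 1.52 to 2.18 units in siControl and 2.29 to 3.41 in siMyT1, with no overlap. Of the 8 the receptor Tek alone was called, from 0.313 ± 0.033 to 0.868 ± 0.28 units (SD, n = 3; log2 fold change 1.03, adjusted p = 0.0101, and 0.0482 at most with 1 array left out). The part of other cell types in the rises was not tested.

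**Figure D3:**
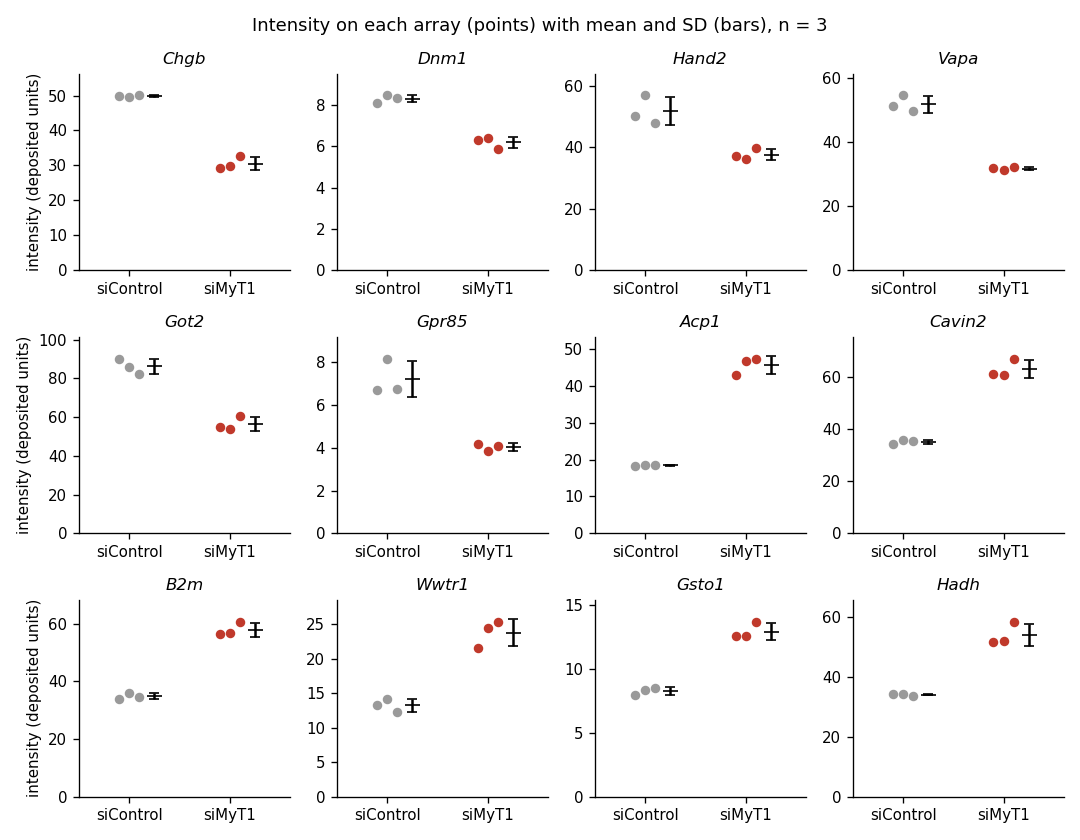
Intensity on each array in deposited units for 12 genes, grey points for siControl and red for siMyT1, with black bars for the mean and SD (n = 3) and every vertical axis starting at 0. Chgb, Dnm1, Hand2, Vapa, Got2 and Gpr85 are lower in siMyT1 while Acp1, Cavin2, B2m, Wwtr1, Gsto1 and Hadh are higher. The groups do not overlap in any panel, which holds for 1346 of the 1348 called genes and so follows from showing called genes.

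Enzymes of detoxification were frequent among the rises. Of 29 Nrf2 antioxidant and detoxification genes, which answer to electrophiles and oxidants, 8 were higher (27.6%, against 5.12% of all genes) with a median of 0.17. Of 31 glutathione transferases and peroxidases 8 were higher (25.8%) with a median of 0.25. The median level of the Nrf2 list was 12.38 units and that of the glutathione list 0.38. Of all genes with a mean of 8.49 to 16.46 units 9.68% were higher, and of those at 0.366 to 1.159 units 4.07%. No member of either list was lower by limma, and at an unadjusted p under 0.05 the counts were 0 and 1. Cbr3, a carbonyl reductase, rose from 3.81, 4.09 and 4.04 units to 7.09, 8.66 and 8.09 (log2 fold change 0.96, SE 0.08, limma adjusted p = 2.76e-05). Ephx1, an epoxide hydrolase, rose from 5.46, 5.42 and 5.39 units to 7.87, 8.79 and 8.55 (log2 fold change 0.61, SE 0.07, adjusted p = 0.000346). Ptgr1, a reductase of prostaglandins and leukotrienes, rose from 1.58, 1.64 and 1.15 units to 4.28, 5.40 and 4.52 (log2 fold change 1.58, SE 0.13, adjusted p = 2.61e-05). The pathway's usual reporter Nqo1 had a log2 fold change of 0.30 and did not pass (adjusted p = 0.218). Among transferases, Gsto1 rose from 7.90, 8.36 and 8.51 units to 12.5, 12.5 and 13.6 (log2 fold change 0.63, adjusted p = 0.000102), Gstm2 by 0.80 (adjusted p = 0.000562) and Gstm5 by 0.41 (adjusted p = 0.000754). The aldo-keto reductase Akr1b8 rose from 5.12, 5.05 and 4.59 units to 10.2, 11.7 and 11.8 (log2 fold change 1.16, adjusted p = 1.95e-05), Akr1b10 by 0.75 (adjusted p = 0.000168) and Akr1c13 by 0.73 (adjusted p = 0.00332). These 3 belong to a list of 108 aldehyde dehydrogenases, aldo-keto reductases and P450s, of which 11 were higher (10.2%) and 2 lower (1.9%), with a median of 0.07. Its higher count was 5 without siMyT1 replicate 2, 6 without siControl replicate 1 or 3, 7 without siMyT1 replicate 3 and 7 with averaged probe sets, and its lower count was 1 without siControl replicate 1 or 3 or siMyT1 replicate 2. Members of the Gstm, Akr1b and Akr1c families are close copies of each other, so their probe sets may share signal and their separate values are uncertain. The Nrf2 list had 4 called members without siControl replicate 1 and 5 without siControl replicate 3 or siMyT1 replicate 2, and the glutathione list 4 to 9, 4 of them without siControl replicate 3 and 5 without siControl replicate 1 or 2 or siMyT1 replicate 3.

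Mitochondrial fatty acid oxidation had the highest share of rises among the lists plotted, 8 of 23 genes (34.8%), with a median of 0.14. Of all genes with a mean of 5.02 to 8.48 units, where the median level of the list lay, 10.78% were higher. Hadh, the dehydrogenase of the second oxidation step of the cycle, rose from 34.2, 34.4 and 33.8 units to 51.8, 52.1 and 58.4 (log2 fold change 0.66, SE 0.07, limma adjusted p = 8.77e-05). Acaa2, the thiolase that ends the cycle, rose from 2.72, 2.55 and 2.55 units to 3.66, 4.92 and 3.78 (log2 fold change 0.61, SE 0.11, adjusted p = 0.00559). Acadl, a long-chain acyl-CoA dehydrogenase, was higher by 0.58 on its brightest probe set, but not when probe sets were averaged (adjusted p = 0.166). Of the other 5, Decr1, Slc25a20, Acot2, Acadm and Etfa, each lost its call when single arrays were left out (adjusted p up to 0.1). The array was siControl replicate 1 or siMyT1 replicate 2 for Decr1 and Slc25a20, siControl replicate 1 or 3 for Acadm and Acot2 (also siMyT1 replicate 2 and siMyT1 replicate 3, respectively), and siControl replicate 2 or 3 or siMyT1 replicate 3 for Etfa. The list had 4 called members without siControl replicate 1 and 5 without siControl replicate 3 or siMyT1 replicate 2. Slc25a24, a carrier of adenine nucleotides and phosphate, rose from 12.3, 14.6 and 12.5 units to 20.2, 20.7 and 18.7 (log2 fold change 0.59, adjusted p = 0.00041).

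The respiratory chain held few calls. Of 35 complex I, 26 complex III and IV and 17 ATP synthase genes, 1 in each list was called, with medians of -0.01, 0.03 and 0.02. After quantile normalization 4, 3 and 3 were lower and 0, 1 and 1 higher. Ndufa4, now counted with complex IV, was lower by 0.28 and Cox6a2 higher by 0.43, and both calls ended when single arrays were left out (adjusted p up to 0.12 and 0.112; any array for Ndufa4, and siControl replicate 1 or 3 or siMyT1 replicate 2 or 3 for Cox6a2). Atp5mpl, a small membrane subunit of ATP synthase, stood apart from the other 16, which did not pass. It fell from 18.5, 18.6 and 15.7 units to 4.15, 5.38 and 4.82, or 27.2% of control (log2 fold change -1.84, SE 0.09, limma adjusted p = 6.37e-07). After Myt1 itself this was the largest fall of any called gene.

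Genes of the interferon response and antigen presentation had 9 higher members of 45 (20.0%, against 5.12% of all genes) and a median of 0.20. B2m, the light chain of MHC class I, rose from 33.7, 35.8 and 34.6 units to 56.4, 56.6 and 60.6, 167% of control (log2 fold change 0.73, SE 0.06, limma adjusted p = 2.09e-05). Ifitm3, a membrane protein that blocks virus entry, rose from 7.26, 7.27 and 5.93 units to 13.1, 13.9 and 14.6 (log2 fold change 1.01, SE 0.08, adjusted p = 2.76e-05). Bst2, tetherin, rose from 2.22, 2.60 and 2.51 units to 5.03, 5.78 and 5.58 (log2 fold change 1.10, SE 0.10, adjusted p = 4.43e-05). Ifi35 rose by 0.40 (adjusted p = 0.00671), and Psmb10, a subunit of the immunoproteasome, by 0.47 (adjusted p = 0.00372). Mr1, an MHC class I-like molecule outside the list, rose from 0.647, 0.538 and 0.460 units to 1.57, 1.66 and 1.45 (log2 fold change 1.24, adjusted p = 0.000933). Ifi30, also outside the list, went the other way, from 38.5 ± 0.24 to 32.6 ± 0.53 units (SD, n = 3; log2 fold change -0.24, adjusted p = 0.0141). The Ifi30 call ended under median centring and without siControl replicate 1 (adjusted p = 0.0589), among other settings. With 1 array left out 5 to 9 members were called, 5 of them without siMyT1 replicate 2 and 6 without siControl replicate 1 or 3. The 9 immune cell markers summed to 15.98 to 18.51 units in siControl and 18.76 to 21.99 in siMyT1. Most of that was Cd74, at 14.3 ± 1.0 and 17.6 ± 1.6 units (SD, n = 3), called higher (log2 fold change 0.30, adjusted p = 0.0284) except without siControl replicate 1 or 3 or siMyT1 replicate 1 or 3 (adjusted p up to 0.131), while the leukocyte gene Ptprc was at 0.0801 ± 0.029 and 0.0681 ± 0.061.

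Transcription factor families differed. Of 23 Kruppel-like and Sp factors 5 were higher (21.7%) and 1 lower, with a median of 0.01 that turned to -0.03 after quantile normalization. Klf4 rose from 7.12, 8.97 and 8.85 units to 13.2, 12.7 and 14.3 (log2 fold change 0.68, SE 0.09, limma adjusted p = 0.000516), and Klf3, a repressor of the same family, by 0.47 (adjusted p = 0.00354). Klf5 was higher by 0.62, but not when its probe sets were averaged (adjusted p = 0.0674). The fall, of Klf11, ended without any array but siMyT1 replicate 3, and 3 members were higher without siControl replicate 1 or siMyT1 replicate 3. Of 336 zinc finger genes named Zfp 12 were higher (3.6%, against 5.12% of all genes) and 3 lower (0.9%, against 2.29%), and after quantile normalization 19 and 10. With 1 array left out 4 to 15 of them were higher, 4 without siControl replicate 1 or siMyT1 replicate 2 or 3 and 7 without siControl replicate 3. The lower count was then 0 to 2. Zfp946 rose from 3.06, 3.06 and 3.07 units to 4.40, 4.87 and 4.96 (log2 fold change 0.60, SE 0.09, adjusted p = 0.00115). None of 33 Hox genes passed limma's test, with 1 higher and 3 lower at an unadjusted p under 0.05. Only 4 of them reached 1 unit in either group.

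Cell cycle genes held both rises and falls, few of which passed in every alternative. Pttg1, the securin that delays the separation of sister chromatids, rose from 13.3, 12.4 and 12.3 units to 20.6, 26.3 and 23.7 (log2 fold change 0.88, SE 0.08, limma adjusted p = 5.27e-05). The replication proteins Rfc5 and Gins2 rose by 0.46 and 0.47 (adjusted p = 0.00495 and 0.00888). The proliferation marker Mki67 overlapped between groups at 91.3% of control, and Pcna did not pass at 109% (adjusted p = 0.276 and 0.453). The S-phase factors E2f2, E2f7 and E2f8 were lower by 0.49, 0.42 and 0.59. These 3 calls ended without siMyT1 replicate 2, and also without siControl replicate 2 for all 3, siControl replicate 1 for E2f2 and siControl replicate 3 for E2f7 (adjusted p up to 0.0714, 0.0822 and 0.0715). Of 37 mitosis genes 2 were higher and 2 lower (5.4% and 5.4%), against 5.12% and 2.29% of all genes. Of 45 replication genes 6 and 3 were (13.3% and 6.7%), and of 54 cyclins, CDKs and CDK inhibitors 1 and 5 (1.9% and 9.3%). Among all genes about as bright as the median level of each list, in the same order, 10.78%, 9.68% and 9.40% were higher and 4.62%, 5.99% and 3.52% lower. The median log2 fold changes of the lists were 0.10, 0.08 and -0.01. In every alternative 1 higher and 1 lower mitosis gene, 2 higher and 0 lower replication genes and 0 genes of the cyclin list kept their call. Without siControl replicate 1 or 3 or siMyT1 replicate 2 or 3, 2 replication genes were higher, and without siControl replicate 2 or siMyT1 replicate 2 or 3, 1 gene of the cyclin list was lower.

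Many large families showed few calls. Of 47 cytosolic ribosomal proteins only Rps25 was called, lower by 0.25. That call ended under median centring and without siControl replicate 1, 2 or 3 or siMyT1 replicate 1 or 2 (limma adjusted p up to 0.105). Of 84 potassium channels 2 were higher and 1 lower. None of 35 sodium and calcium channels, 21 cadherins, 48 keratins or 29 FGF ligands and receptors passed limma's test. At an unadjusted p under 0.05 they counted 1, 2, 1 and 1 higher and 1, 0, 1 and 0 lower. Most of these genes were dim, since 9 of the channels, 3 cadherins, 2 keratins and 5 FGF genes reached 1 unit in either group.

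The share of genes called differed with brightness. With genes divided into 10 equal classes by mean intensity, 0.16% of class 1, the dimmest, were higher and none lower by limma, against 10.78% and 4.62% of class 8. The median SD of log2 values within groups was 0.12 in class 1, 0.29 in class 3, 0.22 in class 5 and 0.08 in class 10. It fell with each brighter class from class 3 on. Class 1, with means of 0.004 to 0.048 units, lay below the pseudocount of 0.196 and had a lower SD than class 3 and the fewest calls. The median absolute log2 fold change was 0.08, 0.17, 0.19 and 0.10 in classes 1, 3, 5 and 10. What set the share called in each class was not tested. In class 10, 134 genes were higher and 83 lower with the values as deposited, 239 and 231 after quantile normalization, and 54 and 79 after median centring. The preference for rises among bright genes thus turned with the scaling. With deposited values, 7.36% to 10.78% of genes were higher and 2.31% to 5.99% lower in each of classes 6 to 10. The shares over all genes, 5.12% and 2.29%, lie below these, so they are low baselines for lists of bright genes.

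**Figure D4:**
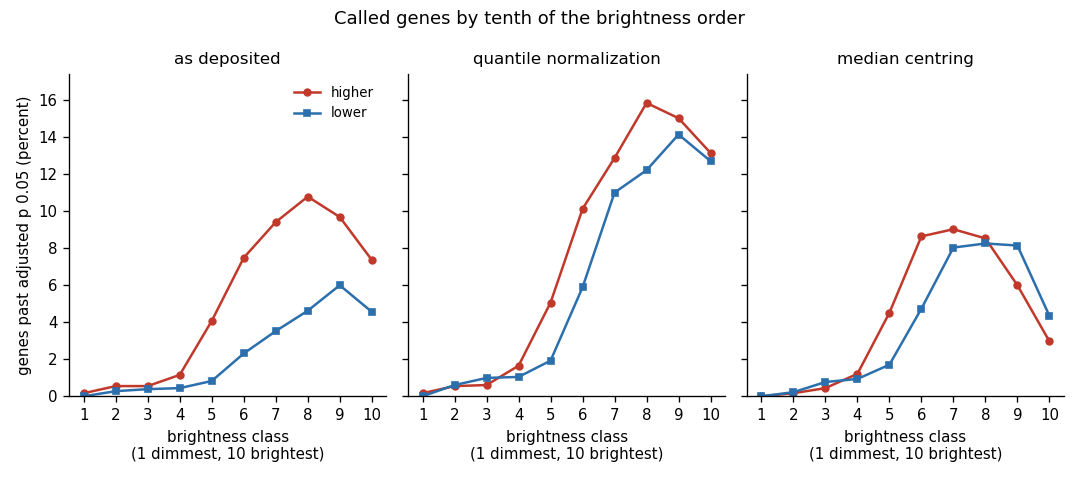
Percent of genes past a limma adjusted p of 0.05 (vertical) in 10 equal classes of mean intensity, 1 the dimmest (horizontal), red for higher and blue for lower in siMyT1, under 3 scalings. With deposited values the higher share peaks at 10.78% in class 8, and under median centring classes 9 and 10 hold more lower than higher genes.

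Of the 910 brightest genes (the top 5%), 52 were higher (5.71%) and 32 lower (3.52%). Acp1, a low molecular weight tyrosine phosphatase, had the largest rise among them. It read 18.2, 18.5 and 18.5 units in siControl and 42.9, 46.8 and 47.4 in siMyT1, 248% of control (log2 fold change 1.30, SE 0.07, limma adjusted p = 6.37e-07). Cavin2, which coats caveolae, rose from 34.0, 35.6 and 35.3 units to 61.2, 60.7 and 66.9 (log2 fold change 0.84, SE 0.06, adjusted p = 1.79e-05). Other bright rises were those of Cth, an enzyme of cysteine synthesis (0.50), Stt3b, a catalytic subunit of N-glycosylation (0.49), Msn, which ties actin to the membrane (0.47), Ifrd1, a transcriptional coregulator (0.47), Crip2, a LIM domain protein (0.45), and Psph, which completes serine synthesis (0.44). Their adjusted p-values lay between 0.000574 for Msn and 0.00346 for Ifrd1.

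Among bright falls, Vapa, which tethers the endoplasmic reticulum to other membranes, went from 51.2, 54.6 and 49.5 units to 31.8, 31.2 and 32.2 (log2 fold change -0.70, SE 0.07, limma adjusted p = 5.11e-05). Got2, the mitochondrial aspartate aminotransferase, went from 90.2, 86.1 and 82.2 units to 55.1, 53.8 and 60.4, 65.5% of the control level (log2 fold change -0.61, SE 0.07, adjusted p = 0.000246). Both had a gap between the groups wider than the range within either. Pfn2, the neuronal profilin, fell by 0.61 (adjusted p = 0.000232), the lipoprotein receptor relative Lrp11 by 0.58 (adjusted p = 0.000591), and Eef1a2, the elongation factor isoform of neurons and muscle, from 58.9, 63.9 and 58.1 units to 43.4, 42.7 and 49.0 (log2 fold change -0.42, adjusted p = 0.00332). Usp22, a deubiquitinase of histones, fell by 0.37 (adjusted p = 0.00449) and Atp6v1f, a proton pump subunit, by 0.33 (adjusted p = 0.00468). Bright genes without a call included the ribosomal stalk protein Rplp0 at 102% of control, the glycolytic enzyme Pgk1 at 103% and the lysosomal protein Lamp1 at 106%.

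The array reads many genes more than once, which gives a check within each gene. Tested 1 by 1, 1014 of 34945 probe sets were higher (2.90%) and 509 lower (1.46%), 4.36% together. Of 9010 genes with more than 1 probe set, 819 had at least 1 called. In 598 of these exactly 1 was called, in 140 at least 2 were higher and none lower, in 76 at least 2 were lower and none higher, and in 5 probe sets were called in opposite directions. In 63 genes every probe set was higher and in 26 every probe set was lower. Probe sets of a gene share the sample and often the transcript, so they are not replicates of the knockdown.

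How well a second probe set followed the first depended on its own brightness. Where the brightest probe set was higher, in 419 genes, the second-brightest had the same sign in 373 (89.0%) and was itself higher in 124 and lower in 3. The same-sign share was 68.4% where the second lay below 0.2 units and 94.3% where it lay at 5 units or above. Where the brightest was lower, in 210 genes, the second had the same sign in 183 (87.1%) and was itself lower in 62, and the share ran from 65.2% to 97.0%. Over all 9010 genes the signs matched in 64.6%, and this share also ran with brightness. It was 53.7% where the second lay below 0.2 units and 73.7% where it lay at 5 units or above. Of the 2 Myt1 probe sets only the bright one showed the knockdown.

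**Figure D5:**
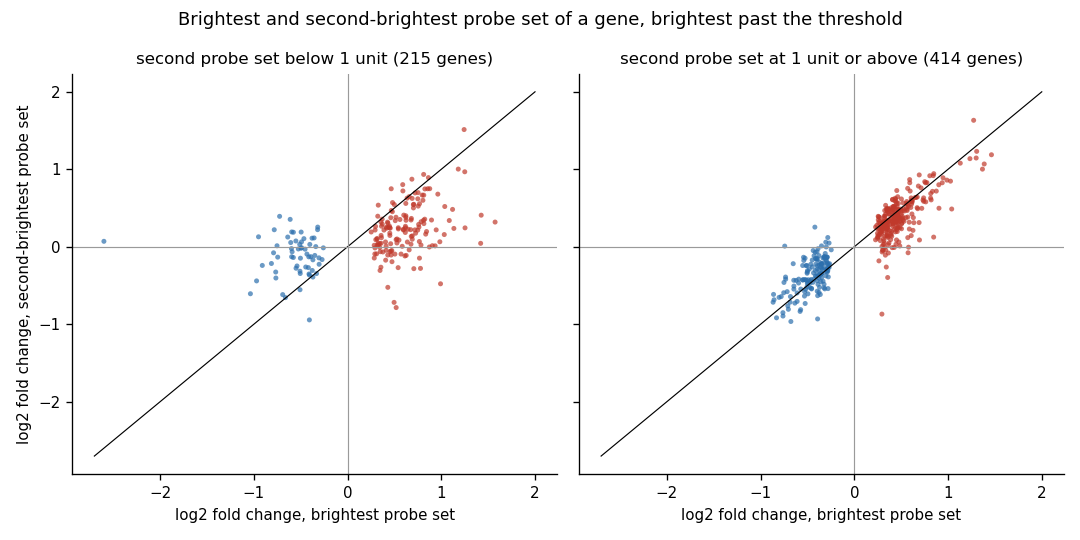
Log2 fold change of siMyT1 against siControl on the brightest probe set (horizontal) and the second-brightest (vertical) for genes whose brightest probe set passed a limma adjusted p of 0.05, red for higher and blue for lower, with the second probe set below 1 unit on the left and at 1 unit or above on the right. The black line marks equal change, and points on the right lie closer to it than those on the left, where the far left point is Myt1.

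Genes with at least 3 probe sets that all passed in the same direction numbered 14 higher and 7 lower. Syt11, a synaptotagmin of vesicle traffic, was lower on all 5, by 0.33 to 0.54, although the call on its brightest probe set ended without siMyT1 replicate 2 (limma adjusted p = 0.0562). Clu, the secreted chaperone clusterin, was lower on all 4. Its brightest probe set read 3.86, 4.43 and 3.50 units in siControl and 1.83, 2.49 and 2.44 in siMyT1, and the next 2.90, 3.03 and 3.09 against 1.37, 1.68 and 1.55 (log2 fold changes -0.76 and -0.89). Ina, Pfn2, Elavl4 and the coregulator Eid1 were lower on all 3 of theirs. Among the rises, the 3 probe sets of Cavin2 gave log2 fold changes of 0.84, 0.92 and 1.22, those of Wwtr1 0.83, 0.72 and 1.04, those of Pttg1 0.88, 0.72 and 0.88 and those of Slc9a3r1, a membrane scaffold, 1.23, 1.14 and 1.06. Pgd, a dehydrogenase of the pentose phosphate pathway, was higher on all 4, by 0.30 to 0.45, with a call on the brightest that ended without siControl replicate 1 (adjusted p = 0.0533). The ATP receptor channel P2rx3 was higher on all 3, with its brightest probe set at 1.56, 1.84 and 1.65 units in siControl and 4.13, 4.07 and 4.87 in siMyT1. Acp1 was higher on 4 of its 6 probe sets, by 1.30, 1.15, 1.17 and 0.66, and the 2 that did not pass were the dimmest, below 0.4 units on every array of either group.

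The 5 genes with opposite calls were Luc7l, Ssu72, Jpt1, Il10rb and Slc25a17. Jpt1, a microtubule-associated protein, was higher on 2 bright probe sets (log2 fold changes 0.26 and 0.31) and lower on another, at 10.2, 12.3 and 12.0 units in siControl and 5.54, 6.01 and 8.70 in siMyT1 (log2 fold change -0.77, limma adjusted p over all probe sets = 0.0208). Ssu72, a phosphatase of RNA polymerase II, was higher by 0.29 on the brightest and lower by 0.87 on the next, at 1.67, 1.91 and 1.44 units against 0.651, 0.985 and 0.859. For the splicing factor Luc7l the brightest of 6 was lower by 0.28 and another higher by 0.36. For Il10rb, a receptor subunit for interleukin-10, and Slc25a17, a peroxisomal carrier, the lower probe set was dim, under 0.3 units on every array of either group.

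Set beside cells treated with siLSD1, siMyT1 arrays were higher for 2408 genes (13.2%) and lower for 1015 (5.58%) at a limma adjusted p under 0.05. Both knockdowns were read against the same siControl arrays, so only levels are given side by side. Cavin2 stood at 60.1 ± 3.0 units in siLSD1 and 62.9 ± 3.5 in siMyT1 (SD, n = 3), which did not differ past the threshold (log2 difference 0.07, adjusted p = 0.546), and Bst2 at 5.07 ± 0.59 and 5.46 ± 0.39 (0.11, adjusted p = 0.531). For both, siControl was far lower, at 35.0 ± 0.83 and 2.45 ± 0.20 units. Other genes were higher in siMyT1 than in siLSD1. Ifitm3 stood at 5.58 ± 0.29 units in siLSD1 and 13.9 ± 0.75 in siMyT1 (log2 difference 1.29, adjusted p = 1.08e-06), Wwtr1 at 9.11 ± 0.12 and 23.8 ± 2.0 (1.36, adjusted p = 1.61e-07) and Hadh at 34.0 ± 2.2 and 54.1 ± 3.8 (0.67, adjusted p = 2.33e-05). Among the falls, Hand2 was at 39.8 ± 2.8 units in siLSD1 and 37.6 ± 1.8 in siMyT1 (log2 difference -0.08, adjusted p = 0.55). Chgb was at 55.5 ± 2.8 and 30.5 ± 1.8 (-0.86, adjusted p = 2.84e-06), Clu at 7.26 ± 0.32 and 2.25 ± 0.37 (-1.62, adjusted p = 2.59e-06), and Atp5mpl at 16.7 ± 1.1 and 4.78 ± 0.62 (-1.76, adjusted p = 1.62e-07).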

How the data were processed

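RNA of 9 samples, 3 per siRNA, was hybridised to 1-colour arrays. The values are intensities as deposited by the authors, 1 per probe set. Their background correction, summarisation and scaling are not given in any source used here. They were multiplied by a constant (163.6) so that the mean trimmed by 2% at each end was 500, 32 was added (0.196 deposited units) and log2 was taken. No further scaling between arrays was applied. A gene stands for its probe set with the highest mean over 9 arrays. Of 45101 probe sets 34945 carried 1 symbol in the platform annotation, 932 several, and 9211 were not listed. limma 3.58.1 (R 4.3.3; lmFit, eBayes with an intensity trend) was fitted over 3 groups, with 6 residual degrees of freedom, and p-values were Benjamini-Hochberg adjusted over all genes or all probe sets at a threshold of 0.05. An exact permutation test of 3 against 3 arrays cannot go below 0.1.

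In all, 18 alternative settings were run (scaling, pseudocount, dim filter, fitted samples, variance model, array weights, replicate block, probe set choice, each array left out). The fit was also run on simulated data with independent noise for each gene and no shifts shared across an array. That run therefore cannot tell how the counts depend on single arrays or on the scaling. The gene lists and the genes named were chosen with earlier results of these data known. Named genes are the key genes of each list, its called members with the smallest adjusted p or the largest and smallest differences, the largest changes overall and among bright genes, genes whose probe sets all moved 1 way, and genes with opposite probe sets. Markers given beside a result, and Mr1, Ifi30, Tgfb2, Tgfb3 and Klf11 where they fall outside that rule, were named after their values were seen. Deviations of same-numbered siMyT1 and siControl arrays from their group means correlated at -0.026, 0.003 and 0.004 over all genes, so no pairing by replicate number was visible. The labels do not say whether samples were paired, and these correlations cannot exclude it.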

Additional observations from a re-analysis of the deposited data

How the results depend on the processing

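The count of higher genes, 931, was 618 with averaged probe sets, 563 without an intensity trend and 423 to 1174 with 1 array left out. The count of lower genes, 417, was 244, 202 and 214 to 313 under the same settings, 1100 after quantile normalization and 675 after median centring. Among probe sets, 1014 higher and 509 lower became 1557 and 813 with a filter on dim probe sets, 565 and 235 without an intensity trend, 1673 and 1509 after quantile normalization, and 417 to 1185 and 229 to 361 with 1 array left out. Median centring gave 951 lower probe sets. With the replicate block there were 584 higher and 297 lower probe sets and 649 higher and 286 lower genes. Among called genes that are named, averaging all probe sets reversed the gene value of Ssu72 (-0.26), Slc25a17 (-0.13), Il10rb (-0.11) and Jpt1 (-0.07), each of which has a probe set called in the opposite direction. Among genes not called, Actb went from 0.17 to -0.08 and Yap1 from 0.34 to -0.03 under that setting. The other settings kept each of these counts within 1.5 times its value with the deposited scale. Few dim genes were called, with 3 higher and 0 lower among the 1820 dimmest.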
